A study of Mus musculus with 36 samples.

Results

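Regional identity of the midbrain was followed through 9 transcription factor genes, En1, En2, Pax7, Zic1, Zic4, Meis1, Meis2, Pbx3 and Irx2, in 36 single mouse neurons. The genes were taken as a named list from the 55359 genes of the expression table, and all 9 were present and above 0 in at least 1 cell. Each neuron belonged to a MADM clone, which is the set of cells descended from a single dividing radial glia progenitor, and each of the 18 clones gave 2 sequenced cells. Progenitors were labelled on embryonic day 12 in mice of genotype M11GTTG that carried either Fz10-CreER or Sox2-CreER, so the promoter in the driver's name set which progenitors could be labelled. Fz10-CreER clones gave 15 sSC cells (11 clones) and 7 dSC cells (7 clones), and Sox2-CreER clones gave 7 sSC cells (5 clones), 5 dSC cells (4 clones) and 2 PAG cells (2 clones). The labels sSC, dSC and PAG are read here as superficial and deep superior colliculus and periaqueductal grey. All mice shared a mixed C57/Bl6, FVB and CD1 background, the animals behind the clones are not named, and the age of the sequenced neurons is not given in the sources used here, so the word adult cannot be checked.

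In the embryo, signals from the isthmus, the boundary of midbrain and hindbrain, switch on the homeodomain repressors En1 and En2 in the midbrain. Pax7 and the zinc finger factors Zic1 and Zic4 mark the dorsal neural tube, from which the superior colliculus arises. Meis1, Meis2 and Pbx3 are homeodomain proteins of the TALE class, to which the Iroquois proteins also belong, that bind DNA together with other homeodomain factors, and in the chick Meis2 works with Otx2 in forming the tectum. Irx2 belongs to the Iroquois homeodomain family, which subdivides the neural plate along its length.

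The values are a normalised signal in which every cell sums to 2000000. Depth is unknown, a listed 0 can be a failed capture, and a gene is called detected here at a value of 1 or more. The cells held 2661 to 16769 detected genes, and the lowest number was in the sSC cell of clone B. Of the neuronal markers, Snap25, a protein of synaptic membrane fusion, ranged from 299.8 to 4008 and Rbfox3, a nuclear protein of mature neurons, from 4.98 to 133 over the 36 cells. The libraries also held transcripts of other cells. Summed over their marker lists, oligodendrocyte markers ranged from 705 to 20420, microglial markers from 7.95 to 8904 and astrocyte markers from 69.6 to 2211. The pericyte markers summed to 0 to 85.8, with a sum of 10 or more in 8 cells, and of these Kcnj8 was listed at 0 in every cell, Pdgfrb was detected in 11 and Rgs5 in 10. Red blood cell markers summed to 0 to 9623, meningeal markers to 0 to 1136 and endothelial markers to 0 to 225.9. Markers of cerebellar granule neurons summed to 0 to 464.5. Sums of 10 or more were found in 34, 19, 10 and 20 cells, in that order. The part of transcripts of other cells in the member values was not tested.

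Zic1 and Zic4 lie side by side on chromosome 9 on opposite strands and overlap by 3398 bases in the GENCODE M21 annotation. The use of strand in counting is not given in the sources used here, so reads in the overlap cannot be told apart. The 250 bases before each start are shown for these neighbours, and for En1, which shares a motif with Zic4. They were taken from RefSeq (GRCm38.p6), an older build than that of the expression table, and 7 of the 9 members had an entry. Capitals mark TGACAG or its complement CTGTCA, the core bound by MEIS and PKNOX proteins, searched on both strands.
Zic1, chr9:91365769-91366018, strand -: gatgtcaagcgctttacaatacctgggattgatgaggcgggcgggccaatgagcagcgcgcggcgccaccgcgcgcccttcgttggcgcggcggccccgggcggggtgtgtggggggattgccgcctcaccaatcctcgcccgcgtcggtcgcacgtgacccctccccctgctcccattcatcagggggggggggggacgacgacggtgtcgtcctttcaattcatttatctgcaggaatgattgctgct
Zic4, chr9:91368722-91368971, strand +: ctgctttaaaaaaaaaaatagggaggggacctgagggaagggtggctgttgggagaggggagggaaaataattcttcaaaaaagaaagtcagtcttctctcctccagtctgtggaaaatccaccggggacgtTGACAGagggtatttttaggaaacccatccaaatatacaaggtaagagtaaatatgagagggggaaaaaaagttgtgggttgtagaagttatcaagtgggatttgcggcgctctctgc
En1, chr1:120602237-120602486, strand +: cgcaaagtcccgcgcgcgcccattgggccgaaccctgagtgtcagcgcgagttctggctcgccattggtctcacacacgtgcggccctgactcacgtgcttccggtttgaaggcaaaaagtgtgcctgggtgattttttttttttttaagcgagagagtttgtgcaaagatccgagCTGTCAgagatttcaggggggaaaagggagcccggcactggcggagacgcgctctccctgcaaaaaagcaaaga
The motif stood in the windows of Zic4 and En1 and in 15.9% of all 32851 windows of this length. The motif TAATTA, a homeodomain core, was in none of the 7 member windows and in 4.84% of all windows. The CCAAT box was in 5 member windows (En1, Irx2, Meis1, Meis2 and Zic1) and in 33.9% of all windows, with both strands searched.

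The members ranged in graded order from widely to sparsely detected. Pbx3 was detected in 30 cells, Meis2 in 29, Zic1 in 24, Zic4 in 22, Meis1 in 20, Irx2 in 17, Pax7 in 13, En1 in 11 and En2 in 7. The order depends on the level, since at 10 or more Irx2 was found in 16 cells, Meis1 in 11, and Zic1 and Zic4 in 10 each. The median over all 36 cells was 22.3 for Meis2, 14.9 for Pbx3, 2.63 for Zic4, 2.16 for Zic1, 1.74 for Meis1 and 0.343 for Irx2, and it was 0 for Pax7, En1 and En2. The order of the neighbours Zic4, Zic1 and Meis1 rests on medians that differ by less than the range over cells. The median of the detecting cells was 39.8 for Irx2, 27.4 for En2, 14.1 for Pax7 and 6.87 for En1, against 42.9 for Meis2 and 17.8 for Pbx3. A cell held 0 to 8 detected members, with a median of 5. The sSC cells of clones B and J held none, and no cell held all 9.

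**Figure D1:**
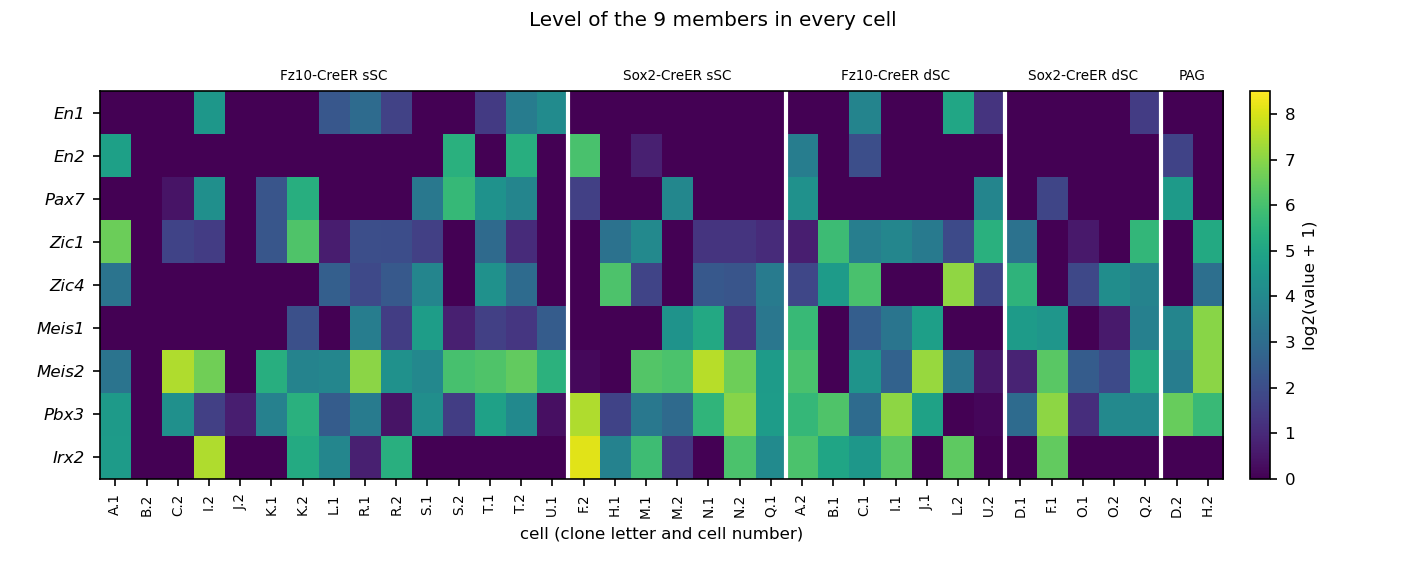
Level of each member (rows) in each of the 36 cells (columns, named by clone letter and cell number), as log2(value + 1), grouped by driver and tissue with white lines between groups. Meis2 and Pbx3 form nearly filled rows, with 29 and 30 cells at 1 or more, while En1 is dark in all 7 Sox2-CreER sSC cells.

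The engrailed genes were both sparse. En1 was detected in 11 cells and reached 31.7 in the dSC cell of clone L. En2 was detected in 7 cells and reached 65.9 in the sSC cell of clone F. The 2 genes were detected together in 2 cells, cell 2 of clone T (En1 10.9, En2 39.3) and the dSC cell of clone C (En1 13.1, En2 3.12), and 20 cells listed neither at 1 or more. Spearman's correlation of En1 with En2 over the 36 cells was -0.04. En1 also ran against Pbx3, with a correlation of -0.466 over all cells and -0.624 over the 12 dSC cells. In the dSC cell of clone L, which held the highest En1, Pbx3 was listed at 0. These correlations are descriptions over cells that share clones and differ in depth.

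Of the 11 cells with En1, 10 were Fz10-CreER cells, although the difference between drivers did not pass the test. En1 was detected in 10 of 22 Fz10-CreER cells, drawn from 6 of 11 clones, and in 1 of 14 Sox2-CreER cells, drawn from 1 of 7 clones. In sSC, En1 ranged from 0 to 21.8 over 15 Fz10-CreER cells, with 7 detecting it, and was listed at 0 in all 7 Sox2-CreER cells. In dSC, 3 of 7 Fz10-CreER cells detected it at 31.7, 13.1 and 1.43, and the 5 Sox2-CreER cells held 0 in 4 cells and 1.85 in the dSC cell of clone Q. The groups overlap, because at least 4 cells of each Fz10-CreER group were also listed at 0. With limma on clone means of log2(value + 1), the Fz10-CreER minus Sox2-CreER difference in En1 was 1.43 ± 0.77 (SE) in sSC (11 and 5 clones; unadjusted p = 0.0718, adjusted p over all genes 1.000) and 1.07 ± 1.04 in dSC (7 and 4 clones; limma, adjusted p = 0.939). Since 1 group was at 0, the size of the sSC difference depends on the added constant, and it was 0.43 with a constant of 10.

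Among the members, Pax7 had the highest correlation with Gad1. Pax7, a paired-box factor that persists in the tectum, was detected in 13 cells, and in 12 of them Gad1, which makes the transmitter GABA, was higher than Slc17a6, the vesicular glutamate transporter. Over all 36 cells Gad1 was higher in 20. The 9 cells with Pax7 at 10 or more all had Gad1 above Slc17a6. Cell 2 of clone S, with the highest Pax7 (50.6), had a Gad1 value of 296.6 and an Slc17a6 value of 68.6. Cell 2 of clone I had a Pax7 value of 17.98, a Gad1 value of 1145 and Slc17a6 listed at 0. The exception was the dSC cell of clone F, with a Pax7 value of 2.40, a Gad1 value of 40.1 and an Slc17a6 value of 345.2.

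Among 14869 genes ranked by Spearman's correlation over the 36 cells, those most like Pax7 were Gata3 (0.652), a zinc finger factor of GABAergic neurons in the embryonic midbrain, then Gad1 (0.611) and the ion channel gene Asic4 (0.591). The correlation of Pax7 was 0.507 with Gad2, 0.429 with the vesicular GABA transporter gene Slc32a1 and -0.518 with Slc17a6. Within tissues, Pax7 and Gad1 had a correlation of 0.557 over 22 sSC cells and 0.431 over 12 dSC cells. The rank is a description picked from many genes, and Pax7 is at 0 in 22 of the cells, so it separates listed from unlisted cells more than it follows the level. In the cells that listed Pax7 at 1 or more, Gata3 ranged from 26.9 to 258.2 except for the dSC cell of clone F, where it was listed at 0.

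**Figure D2:**
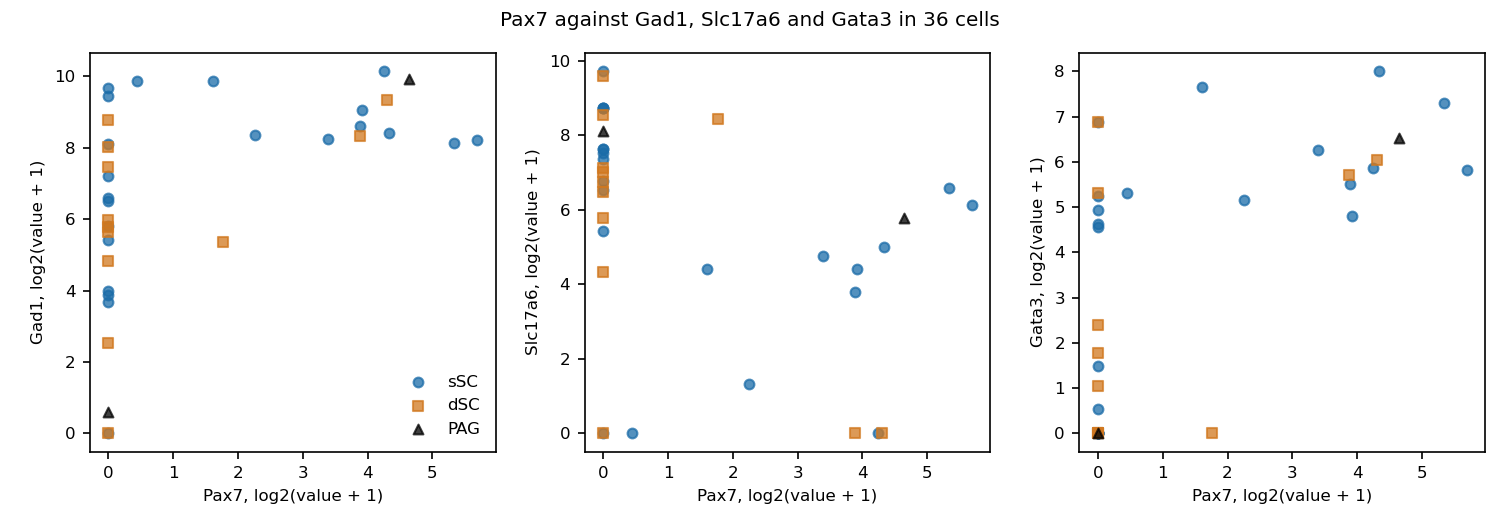
Gad1, Slc17a6 and Gata3 (vertical axes) against Pax7 (horizontal axes), all as log2(value + 1), in 36 cells with sSC as circles, dSC as squares and PAG as triangles. Cells with Pax7 at 1 or more lie high for Gad1 and Gata3, with Spearman correlations of 0.611 and 0.652. They lie low or midway for Slc17a6 (-0.518). The exception in all 3 panels is 1 dSC cell (clone F), with Slc17a6 at 345.2.

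The correlation of Meis2 with Gad1 differed in sign between the tissues, as it did for several other members. For Meis2 it was 0.478 over 22 sSC cells and -0.28 over 12 dSC cells. For Meis1 it was 0.211 in sSC and -0.349 in dSC, and for Pbx3 0.425 and -0.154. The signs were reversed in Zic4 (-0.171 and 0.12) and En1 (-0.033 and 0.042). With Slc17a6 the correlation of Meis2 was -0.287 in sSC and 0.577 in dSC. The difference between the tissues was not tested, and Meis2 also followed the number of detected genes (0.478 over 36 cells). Zic1 had a correlation with Slc32a1 of -0.413 over all cells, -0.101 over the sSC cells and -0.512 over the dSC cells. Gad1 was above Slc17a6 in 12 of the 24 cells with Zic1 at 1 or more and in 3 of the 10 cells with Zic1 at 10 or more.

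The genes closest to the other members were of mixed kinds, by the same ranking. Closest to En1 were Rin2 (0.608), S100a11 (0.594) and Mndal (0.593). Closest to Irx2 were Tex30 (0.64), Ttll9 (0.55) and Gm26716 (0.545). Closest to Meis1 were Cd46 (0.718), Ctr9 (0.709) and Lgi3 (0.685), and closest to Meis2 were Ttc39c (0.707), Zswim5 (0.695) and Itm2c (0.686). For Pbx3 they were Gm14026 (0.73), Vstm2a (0.709) and Pxk (0.7), for Zic1 Gm7331 (0.686), Larp1b (0.673) and Ptpn3 (0.645), and for Zic4 Tead1 (0.659), Mrpl33 (0.619) and Rnf40 (0.61). No member was among the closest genes of another. En2, detected in 7 cells, was not ranked.

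En2 was spread over both drivers. In sSC it was detected in 3 of 15 Fz10-CreER cells, at 41.5, 39.3 and 27.4, and in 1 of 7 Sox2-CreER cells, at 65.9. In dSC it was detected in 2 of 7 Fz10-CreER cells, at 11.1 and 3.12, and was listed at 0 in all 5 Sox2-CreER cells. Of the 7 cells with En2, 5 also detected Pax7, and the PAG cell of clone D held 2.27 of En2 and 24.03 of Pax7.

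Both Zic1 and Zic4 were detected in 18 cells, Zic1 alone in 6, Zic4 alone in 4 and neither in 8. At 10 or more, each gene was found in 10 cells and the 2 together in 3. Their correlation over the 36 cells was 0.388. In the dSC cell of clone L, Zic4 stood at 134 while Zic1 was 2.80. In the sSC cell of clone A, Zic1 stood at 94.9 while Zic4 was 8.68. The overlap of the genes in M21 can pass reads from either to the other if the annotation used in counting holds it, which is not known. By the RefSeq starts of the windows shown, the genes point away from each other without overlap.

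The Meis and Pbx members are read together here. Meis1 was detected in 20 cells, and 19 of these also detected Meis2. Meis2 and Pbx3 were detected together in 26 cells. The correlation of Meis1 was 0.456 with Meis2 and 0.436 with Pbx3 over all cells, in the 22 sSC cells it was 0.36 with Meis2 and 0.238 with Pbx3, and in the 12 dSC cells it was 0.666 with Meis2 and 0.527 with Pbx3. Meis2 and Pbx3 had a correlation of 0.267 over all cells, and Irx2 had one of -0.154 with Meis1. Meis1 also followed the number of detected genes (0.581), as did Pbx3 (0.363), and the part of depth in their co-listing was not tested. Meis1, Meis2 and Pbx3 have introns of 128637, 190733 and 195577 bases in M21, against 2951 for En1 and 2097 for Irx2. Pax7, detected in 13 cells, has 90607, and Zic1, detected in 24 cells, has 2060. The signal counts introns as well as exons, and the part of intron length in detection was not tested. Antisense genes overlap Meis1 (Gm16140 and Gm16141) and were detected in 9 cells, 1 of which had Meis1 below 1. Both PAG cells held Meis1, Meis2 and Pbx3. Meis1 was 13.5 in clone D and 127 in clone H, Meis2 was 11.2 and 129, and Pbx3 was 91.0 and 53.1, while En1 and Irx2 were listed at 0 in both.

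Across the collicular layers, Zic1, Zic4 and Meis1 had lower medians in sSC than in dSC, as did Irx2 and Pbx3, but none of the members passed the test. Zic1 ranged from 0 to 94.9 with a median of 1.64 in 22 sSC cells, and from 0 to 55.9 with a median of 9.20 in 12 dSC cells. Zic4 had a median of 2.49 in sSC (highest 69.3) and 7.74 in dSC (highest 134). Meis1 had a median of 1.10 in sSC (highest 34.3) and 6.82 in dSC (highest 51.5). Irx2 had a median of 1.12 in sSC (highest 274.5) and 10.9 in dSC (highest 87.7), and Pbx3 had a median of 11.4 in sSC (highest 179) and 14.9 in dSC (highest 133.6). Meis2 ran the other way, with a median of 41.1 in sSC (highest 192) and 7.27 in dSC (highest 145). In all of these genes the tissues overlap over most of their range.

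Cells of a clone within a tissue were averaged, giving 16 sSC and 11 dSC clone means. The sSC minus dSC difference in log2(value + 1) was -1.49 ± 0.71 (SE) for Meis1 (limma, unadjusted p = 0.0429, adjusted p over all genes = 0.943). It was -1.40 ± 0.77 for Zic1 and -1.42 ± 0.83 for Zic4 (limma, adjusted p = 0.971 for both). The remaining differences were 0.62 ± 0.97 for Meis2, 0.39 ± 0.66 for Pax7, -0.75 ± 0.88 for Pbx3, -0.40 ± 1.03 for Irx2 and -0.07 ± 0.62 for En1. En2 did not reach 1 in 25% of the cells and was not tested. Of the 8 members tested, 0 passed an adjusted p of 0.05, as did 0% of the 14613 genes tested, and 1 member had an unadjusted p under 0.05, as did 5.16% of all genes. The median difference was -0.57 over the 8 members and -0.31 over all genes. After quantile normalization, which brought the median of all genes to -0.01, the differences were -0.97 for Meis1, -0.86 for Zic1 and -1.20 for Zic4. With the number of detected genes as a covariate, they were -1.06 for Meis1, -1.325 for Zic1, -0.25 for Pbx3 and 1.43 for Meis2. In each of these 2 fits, 0 members had an unadjusted limma p under 0.05. The same held without the sSC library of clone B. Marker sums of other cells also differed. Astrocyte markers had a median of 617 in sSC and 1121 in dSC cells, and microglial markers had a median of 1151 in sSC and 2103 in dSC cells. Their part in the differences was not tested.

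The 9 clones with a cell in each layer gave the same comparison between sisters. In Zic1 the dSC cell was the higher sister in 7 clones, the sSC cell in 1, and 1 clone was tied. In Meis1 the dSC cell was higher in 6 clones and the sSC cell in 1. In Zic4 the dSC cell was higher in 5 clones and the sSC cell in 1. These counts include clones B and J, whose sSC cells detected no member. Their dSC cells held Zic1 at 55.9 and 10.1, Zic4 at 24.3 and 0, and Meis1 at 0 and 26.7. With the clone as a block, the limma differences of sSC minus dSC were -2.11 ± 1.09 for Zic1, -2.07 ± 0.90 for Meis1 and -1.76 ± 0.92 for Zic4, with adjusted p-values of 0.574, 0.531 and 0.577. Meis2 and Pax7 changed sign in these sisters, at -0.46 and -0.41. The median difference of this fit over all 14613 genes was -0.66. Meis1 alone of the 8 members had an unadjusted p under 0.05 (limma, 0.034), as did 1318 of the 14613 genes. Detected genes also differed between sisters, from 2661 in sSC and 12242 in dSC in clone B to 16769 and 13815 in clone Q. The fit with the clone as a block was not run with detected genes as a covariate.

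**Figure D3:**
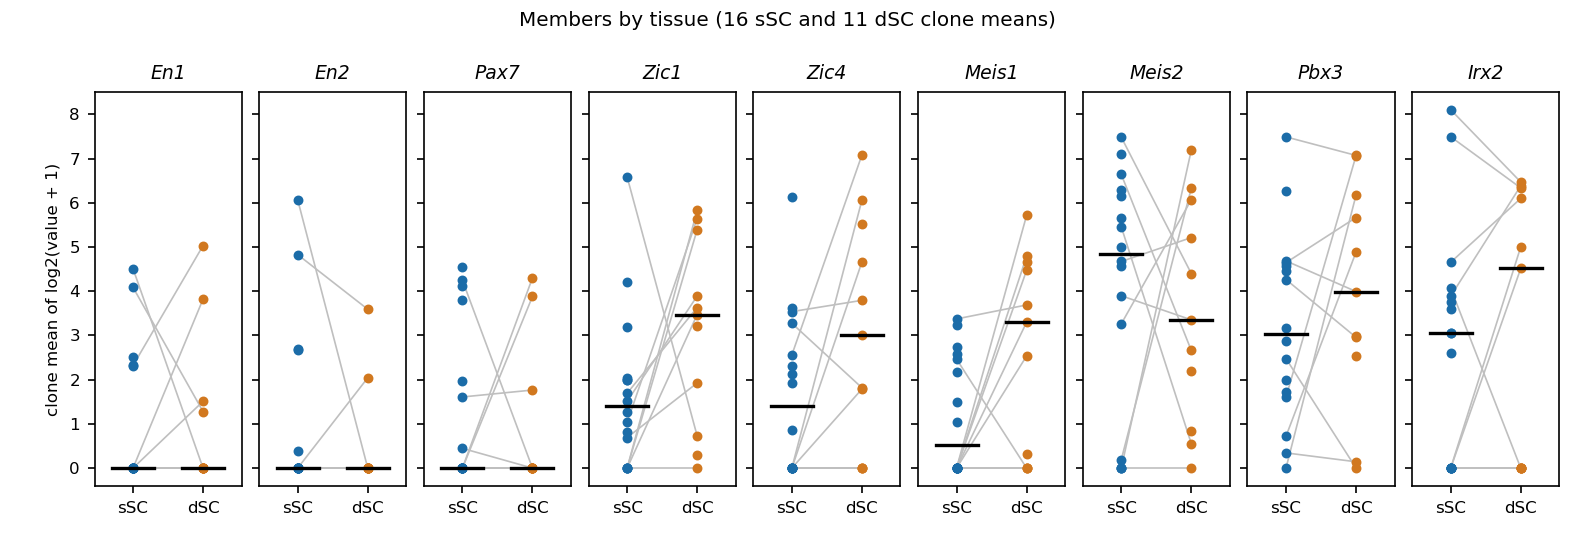
Clone means of log2(value + 1) for each member in sSC (left, 16 clones) and dSC (right, 11 clones), with black bars at the medians and grey lines joining the 9 clones that have a cell in each. In Zic1, Zic4 and Meis1 the medians are 1.39, 1.40 and 0.52 in sSC and 3.47, 3.02 and 3.30 in dSC, and the points overlap throughout.

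Irx2 stood in opposite order between the drivers in the 2 layers, without passing the test in either. In sSC it was detected in 5 of 15 Fz10-CreER cells, at 179, 39.8, 35.9, 24.2 and 13.8, and in 6 of 7 Sox2-CreER cells, at 274.5, 67.4, 56.8, 15.8, 12.5 and 1.552. In dSC it was detected in 5 of 7 Fz10-CreER cells, at 82.5, 79.8, 67.6, 31.04 and 21.9, and in 1 of 5 Sox2-CreER cells, at 87.7. The Fz10-CreER minus Sox2-CreER difference was -2.54 ± 1.25 (SE) in sSC (limma, unadjusted p = 0.0512, adjusted p = 1.000) and 2.43 ± 1.63 in dSC (limma, unadjusted p = 0.15, adjusted p = 0.903). The interaction of tissue and driver was -4.97 ± 2.06 (limma, unadjusted p = 0.0213, adjusted p = 0.792). With the clone as a block, in the 9 clones with a cell in each layer, the interaction was -4.61 ± 2.24 (limma, unadjusted p = 0.0558, adjusted p = 1.000). Clone F held the highest Irx2 of the Sox2-CreER cells in both layers. Without clone F the difference was -1.65 in sSC and 4.05 in dSC, and the interaction was -5.70. Over all genes tested, the median driver difference was -0.38 in sSC and 0.37 in dSC, and the median interaction was -0.80. After quantile normalization the median interaction was 0.02, and 0 members had an unadjusted limma p under 0.05 for the interaction.

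Pbx3 was detected in every Sox2-CreER cell. The counts were 16 of 22 for Fz10-CreER and 14 of 14 for Sox2-CreER. In sSC it had a median of 10.7 (highest 41.6) in Fz10-CreER cells and 24.8 (highest 179) in Sox2-CreER cells, a difference of -2.13 ± 1.15 in clone means (limma, adjusted p = 1.000). In dSC the median was 28.5 in Fz10-CreER cells, and the 5 Sox2-CreER cells held 1.15, 6.90, 14.8, 14.9 and 133.6, a difference of -0.31 ± 1.47 (limma, adjusted p = 0.990). Detected genes per sSC cell had a median of 11544 in Fz10-CreER and 13450 in Sox2-CreER libraries, and the part of this in the Pbx3 difference was not tested. With the number of detected genes as a covariate, the sSC difference was -1.65.

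For the remaining members the driver differences in sSC were 0.84 ± 0.92 for Pax7, 0.76 ± 1.35 for Meis2, 0.28 ± 1.00 for Zic1, -0.82 ± 0.77 for Meis1 and -1.34 ± 0.98 for Zic4. In dSC they were 1.27 ± 1.37 for Zic1, 0.73 ± 0.97 for Pax7, -0.03 ± 1.54 for Zic4, -0.18 ± 1.501 for Meis2 and -0.95 ± 1.42 for Meis1. In sSC, 0 of 8 members passed the adjusted threshold, as did 0% of 14320 genes, and 0 members had an unadjusted p under 0.05, against 4.1% of all genes. In dSC, 0 of 8 passed, against 0.00613% of 16310 genes, and 0 had an unadjusted p under 0.05, against 4.81%. For the interaction, 0 of 8 passed, against 0.00684% of 14613 genes, and 1 (Irx2) had an unadjusted p under 0.05, against 5.78%. For the interaction with the clone as a block, 0 members had an unadjusted p under 0.05.

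**Figure D4:**
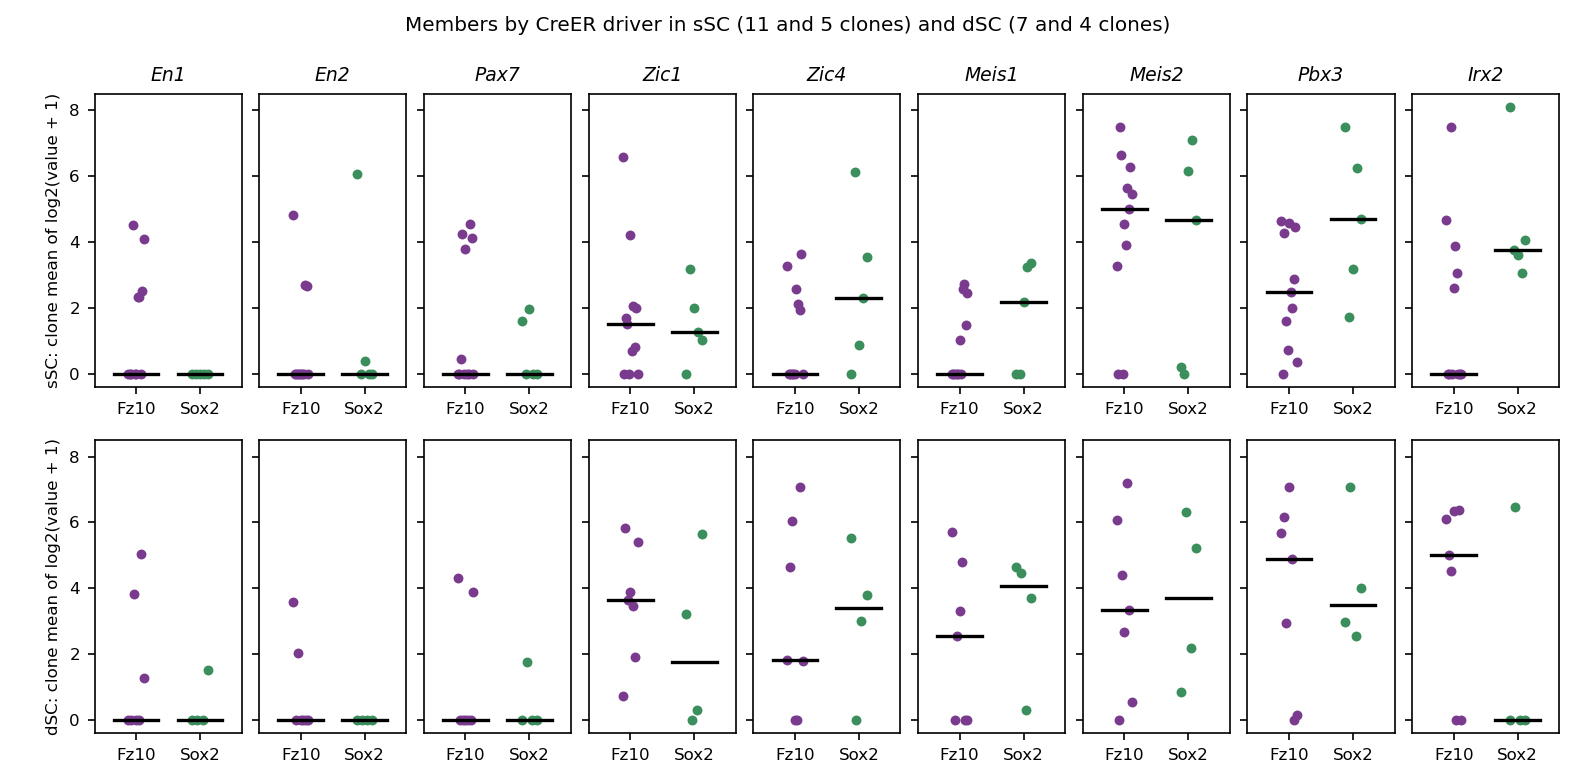
Clone means of log2(value + 1) for each member by driver, in sSC (top row, 11 Fz10-CreER and 5 Sox2-CreER clones) and dSC (bottom row, 7 and 4 clones), with black bars at the medians. The Irx2 medians are 0 in Fz10-CreER and 3.76 in Sox2-CreER clones in sSC, and 5.002 in Fz10-CreER and 0 in Sox2-CreER clones in dSC, and all 5 Sox2-CreER sSC clones are at 0 for En1.

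Most cells, sisters included, differed in their set of detected members. The 36 cells showed 29 distinct combinations of detected members, and in 1 of 18 clones both cells had the same combination. Of the combinations, 7 were held by more than 1 cell, with 14 cells among them. Whether sisters match more or less often than unrelated cells was not tested. For Irx2, both sisters detected it in 5 clones (A, F, I, L and M), 1 sister in 7 and neither in 6. In clone F it was 274.5 in the sSC and 87.7 in the dSC sister, and in clone I 179 in the sSC and 79.8 in the dSC sister. En1 was detected in both sisters of clones L, R, T and U, which are all Fz10-CreER clones. Pax7 was detected in both sisters of clones F, K, S and T. Meis1, detected in 20 of the 36 cells, split most often, with 1 detecting sister in 10 clones. This was not compared with unrelated cells.

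In the 16 clones with both cells in sSC or dSC, the intraclass correlation of sisters, after removal of tissue means, was 0.372 for Irx2, 0.299 for En1, 0.286 for Pbx3, 0.276 for Zic4 and 0.232 for Pax7. It was -0.076 for Meis2, -0.176 for Zic1 and -0.177 for Meis1, against a median of 0.045 over 15132 genes. In limma's moderated F test over clones, Irx2 had an unadjusted p of 0.0365 and an adjusted p of 0.606. Of the 8 members, 0 passed the adjusted threshold, against 0.0198% of all genes, and 1 had an unadjusted p under 0.05, against 7.8%. Clone, animal and driver cannot be told apart in this comparison.

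**Figure D5:**
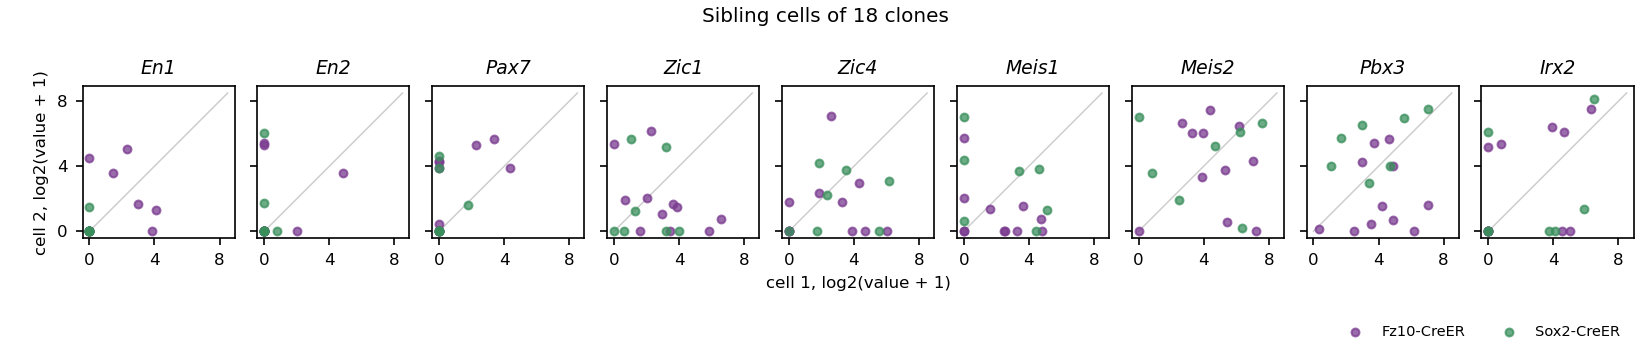
Log2(value + 1) of each member in cell 2 against cell 1 of the 18 clones, with Fz10-CreER clones in purple, Sox2-CreER clones in green and the diagonal in grey. Points on an axis have a listed 0 in at least 1 sister. At a value of 1 or more, Meis1 was detected in 1 sister only in 10 clones, while Meis2 was detected in both sisters of 12 clones and Pbx3 of 13.

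Other genes of the patterning system were mostly listed at 0 in these neurons. Otx2, the homeodomain factor that sets forebrain and midbrain apart from hindbrain, was detected in 21 cells at a median of 105.9 in those cells and up to 1094. Its counterpart in the hindbrain, Gbx2, and the isthmic signal Fgf17 were listed at 0 in every cell. The isthmic signals Fgf8 and Wnt1 were detected in 1 and 2 cells, and the paired-box genes Pax2, Pax3, Pax5 and Pax8 in 4, 6, 7 and 1 cells. Of 8 Hox genes of the hindbrain, 5 were listed at 0 throughout, Hoxb3 was detected in 5 cells and Hoxa5 in 2. Forebrain genes were found in some cells, with Emx2 in 14 and Tbr1 in 12.

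Several relatives of the members were detected about as widely as Pbx3 and Meis2. Pbx4 was found in 31 cells, Meis3 in 29, Pknox2 in 28 and Pbx2 in 26. Among the Iroquois genes Irx5 was found in 16 cells, Irx3 in 13 and Irx4 in 1, and among Zic genes Zic5 in 10. Of the 11 relatives tested between sSC and dSC, 0 passed the adjusted threshold, and Pbx2 had an unadjusted p under 0.05, with a difference of -2.26 ± 0.93 (limma, adjusted p = 0.941). Of the 11 tested between drivers in dSC, 0 passed, and the largest of their differences was in Meis3, 4.86 ± 1.25 (limma, unadjusted p = 0.00091, adjusted p = 0.903). Meis3 was detected in 7 of 7 Fz10-CreER dSC cells, at a median of 67.9, and in 1 of 5 Sox2-CreER dSC cells, at 29.6. The sSC counts were 13 of 15 for Fz10-CreER and 6 of 7 for Sox2-CreER. Otx2 differed by 1.596 ± 1.15 between sSC and dSC (limma, adjusted p = 0.971).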

How the data were processed

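Per the labels' protocols, cDNA of polyadenylated RNA was prepared with SMART-Seq Single Cell PLUS chemistry. The submitters' processing notes list STAR 2.7.9a, R 4.0.3 and GRCm39, with counting program, annotation, strand use and formula not given in the sources used here. Deposited values are a normalised signal that the authors called exon-plus-intron TPM. Each cell sums to 2000000, so they were treated as a signal, not as plain TPM as had been planned, and the log-scale tests were kept. They hold no depth, so no counting interval is given. Symbols and overlaps came from GENCODE M21, without positions.

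Tests used log2(value + 1) of genes that reached 1 in 25% or more of a comparison's cells. Cells of a clone within a tissue were averaged. All genes were fitted with limma 3.58.1 (R 4.3.3), with trended and robust eBayes moderation, Benjamini-Hochberg adjustment and a threshold of 0.05, and the fit was tested on simulated data. The clone effect was a moderated F test on single cells with tissue as a covariate. The p-values of the main tissue, driver and interaction fits measure the spread between clone means. In the tissue and interaction fits, the 9 clones with a cell in each layer entered in both layers as if independent. The p-values of the clone effect, and of the fits with the clone as a block, measure the spread within clones. Correlations across cells are descriptions without p-values. All 9 members are named, the related genes come from fixed lists, some of whose genes are not reported here, and the genes most like a member detected in at least 9 cells are its top 3 in Spearman's correlation. The members and lists were chosen with earlier results of these data known.

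Alternatives were other added constants (0.1 and 10), no filter, quantile normalization, rescaling without dominant genes, plain eBayes, the number of detected genes as a covariate, the clone as a block, duplicateCorrelation, and leaving out the sSC library of clone B or each clone in turn.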

Additional observations from a re-analysis of the deposited data

Results flagged for a closer look

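Among the Sox2-CreER clones, 5 clone means of members stood apart from the rest of their group by Dixon's ratio. The ratio was computed for 25 groups of 4 to 7 clone means, and chance marks about 1 in 20 groups of spread values. That rate does not hold where the other clones are at 0, since any lone detecting clone is then marked, as for Irx2, Pax7 and En1 in dSC. For En2 the other clones all stood below 1. On the log2(value + 1) scale, clone F stood at 8.11 for Irx2 and 6.07 for En2 in sSC, and at 6.47 for Irx2 and 1.77 for Pax7 in dSC. Clone Q stood at 1.51 for En1 in dSC.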

How the results depend on the processing

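None of the members passed the adjusted threshold in any of the 5 comparisons under any of the 121 alternatives run. Of 585 alternative values of 25 member differences (8 between tissues, 8 between drivers in each tissue, and the interaction for Irx2 alone), 559 kept their sign. The sSC minus dSC difference was 0.208 for En1 after quantile normalization, and -0.463 for Meis2 and -0.405 for Pax7 with the clone as a replicate block. The Fz10-CreER minus Sox2-CreER difference in dSC was 0.072 for Pbx3 and 0.176 for Zic4 with a constant of 10, and 0.464 for Zic4 with detected genes as a covariate. Leaving out each clone gave ranges that crossed 0, for En1 between tissues (-0.415 to 0.268), for Meis2 (-0.148 to 1.63) and Zic1 (-0.203 to 0.701) between drivers in sSC, and for Meis2 (-1.12 to 0.713), Pbx3 (-0.844 to 0.667) and Zic4 (-1.06 to 0.787) between drivers in dSC. These differences were smaller than their standard errors. The cause was not tested. Sister cells were paired by clone, as the labels give it. At a level of 10 in place of 1, En1 was counted in 5 cells, Zic1 in 10, Zic4 in 10, Meis1 in 11 and Irx2 in 16.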
